A study of Mus musculus with 31 samples.

Results

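The genes described here carry fibroblast growth factor (FGF) signalling in the developing lens and retina. The set holds 10 genes: the ligands Fgf9 and Fgf15, the receptors Fgfr1, Fgfr2 and Fgfr3, the feedback inhibitors Spry1, Spry2 and Dusp6, and the ETS transcription factors Etv4 and Etv5. Their probes were found by the gene name in the array's own annotation, which gave 16 of 55681 different probes. Whole eyes of E13.5 mice, normal in appearance and with the pigmented epithelium layer taken off, were measured on 1-colour (Cy3) Agilent arrays. WT females (3 eyes, numbered 1, 2 and 4), WT males (3 eyes), hemizygous Ftx-/Y males (3 eyes) and homozygous Ftx-/- females (11 eyes, each on 2 arrays that were averaged) were compared. The mice were on a C57BL/6N background and the mutants descend from Ftx-targeted ES cells. Ftx is an X-linked gene for a long non-coding RNA, and the targeted allele also lacks expression of miR-374 and miR-421, which lie within it. Heterozygous females were not analysed here.

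FGF ligands bind receptor tyrosine kinases at the cell surface together with heparan sulphate, and the receptors pass the signal through docking proteins to RAS and ERK. Activated ERK raises the transcription of Etv4 and Etv5, which carry out part of the response, and of Sprouty genes and Dusp6, which damp it. In the vertebrate eye, FGF from the retina and the surrounding tissue drives cells of the posterior lens vesicle to leave the cell cycle and become crystallin-filled fibres, and FGF signals also favour neural retina over pigmented epithelium. Fgf9 is made by the neural retina, and Fgf15, the mouse counterpart of human FGF19, marks retinal progenitors.

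Genotype and sex were checked first. The signal of probe A_55_P2175002 of Ftx (named B230206F22Rik on the array) averaged 101 ± 44.8 (SD, n = 3) in WT females and 21.7 ± 11 (n = 11) in Ftx-/- females. In males it averaged 106 ± 4.53 (n = 3) in WT and 16.5 ± 2.93 (n = 3) in Ftx-/Y eyes. It was well above background on every WT array, on 9 of 22 Ftx-/- arrays and on 0 of 3 Ftx-/Y arrays. The other Ftx probe, A_55_P2175007, averaged 40.5 in WT and 9.78 in Ftx-/- females. It was not above background on any male array (18.9 in WT, 13.7 in Ftx-/Y), so it does not tell the male genotypes apart. Eif2s3y, a Y-linked gene, rose well above background on every male array, but on only 1 of the 22 arrays of Ftx-/- females and on none of the 3 of WT females. The median intensity of an array lay between 34.2 and 74.99 before normalization, and no spot was saturated. Slide 1 carried every WT eye together with eye 1 of the Ftx-/Y males. Slide 2 carried the other two Ftx-/Y eyes (2 and 3) with the first 3 eyes of the Ftx-/- females, slide 3 carried Ftx-/- eyes numbered 4 to 7, and slide 4 those numbered 8 to 11. Each slide had a scan of its own. No slide therefore held both WT and Ftx-/- females, so slide and genotype cannot be told apart in the female comparison. The labels do not say whether 2 eyes came from 1 embryo, and p-values measure the spread between these eyes.

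The probes differ in where they lie on the gene, which matters here because Fgfr1, Fgfr2, Fgfr3 and Etv4 have more than 1 probe and the probes of a gene did not always move together. Probes are 60 bases long, and positions are those of mm9 in the array files. The brightest probes of Etv4, Etv5 and Fgfr3 hold AATAAA, the letters of the common polyadenylation signal, on the transcript strand, which is a description of the sequence and not a mapped site. Of all 55681 probes 10.1% hold AATAAA in that orientation and 3.74% its reverse complement, and of the 14052 probes tested below 16% and 4.41%. The 30 bases around it, with the signal in capitals, are given for each of these probes.
Etv4 A_55_P2078780, chr11:101631067-101631096, minus strand: atgccagaccttAATAAAgcctctgcttct
Etv5 A_55_P2037454, chr16:22381391-22381420, minus strand: tgtactgtgtacAATAAAgaagattgcttt
Fgfr3 A_55_P1996578, chr5:34079679-34079708, plus strand: ttactttccaaaaAATAAAgagataactgg

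Probe A_55_P1967022 of Fgfr1 and probe A_65_P06147 of Fgfr3, both upstream of the brightest probe of their gene, are shown because they differ from it in the size of the change. The Fgfr3 probe maps to a span of 235 bases, longer than the probe itself. Both Fgfr2 probes share 42 bases, in capitals in the sequence of probe A_55_P2094881, and were correlated with r = 0.233 over the 20 eyes (a description, since the eyes share groups and slides).
Fgfr1 A_55_P1967022, chr8:26684061-26684120, plus strand: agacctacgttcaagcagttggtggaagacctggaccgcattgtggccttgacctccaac
Fgfr3 A_65_P06147, chr5:34077856-34078090, plus strand: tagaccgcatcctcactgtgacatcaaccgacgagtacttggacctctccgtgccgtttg
Fgfr2 A_55_P2094881, chr7:137307473-137307532, minus strand: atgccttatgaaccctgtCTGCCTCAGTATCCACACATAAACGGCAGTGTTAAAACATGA

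The remaining sequences shown are of low complexity. The last 30 bases of the brightest Fgfr1 probe, A_55_P2057777, are 70% A, and those of a further Fgfr1 probe, A_55_P1967015, and of the Spry2 probe are 63.3% and 60% T. Capitals mark runs of at least 3 A in the former and of at least 3 T in the others.
Fgfr1 A_55_P2057777, chr8:26685102-26685131, plus strand: tattAAAAAcAAAcgaacagAAAgAAAAAA
Fgfr1 A_55_P1967015, chr8:26685850-26685879, plus strand: ttgTTTgTTTggttggttggttggtcTTTT
Spry2 A_55_P1952251, chr14:106291845-106291874, minus strand: gagaggcTTTTcTTTctcTTTTccTTTTTT

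To ask whether these genes change when Ftx is lost, log2 values of quantile-spline normalized intensity were compared with limma in a single fit over the 20 eyes. The test covered the 14052 probes whose signal averaged more than 500 over WT females, and an adjusted p (Benjamini-Hochberg over these probes) under 0.05 was a call. Of the 16 FGF probes 9 were tested, for 8 of the 10 genes, and Fgfr2 and Spry2 had none. For the 7 dimmer probes the values come from a second fit over all 55681 probes. In females 2 of the 9 tested probes were called, both lower in Ftx-/- eyes, namely the brightest probes of Etv4 and Fgfr1, against 35% of all probes tested, 18.2% of them lower. With 9 probes, a count of 2 is near these shares and is no result about the FGF genes. The 4925 calls behind the 35% ran from 3148 to 5143 without each eye in turn. The median change of the 8 brightest tested probes was -0.18, beside -0.01 over all probes tested.

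**Figure D1:**
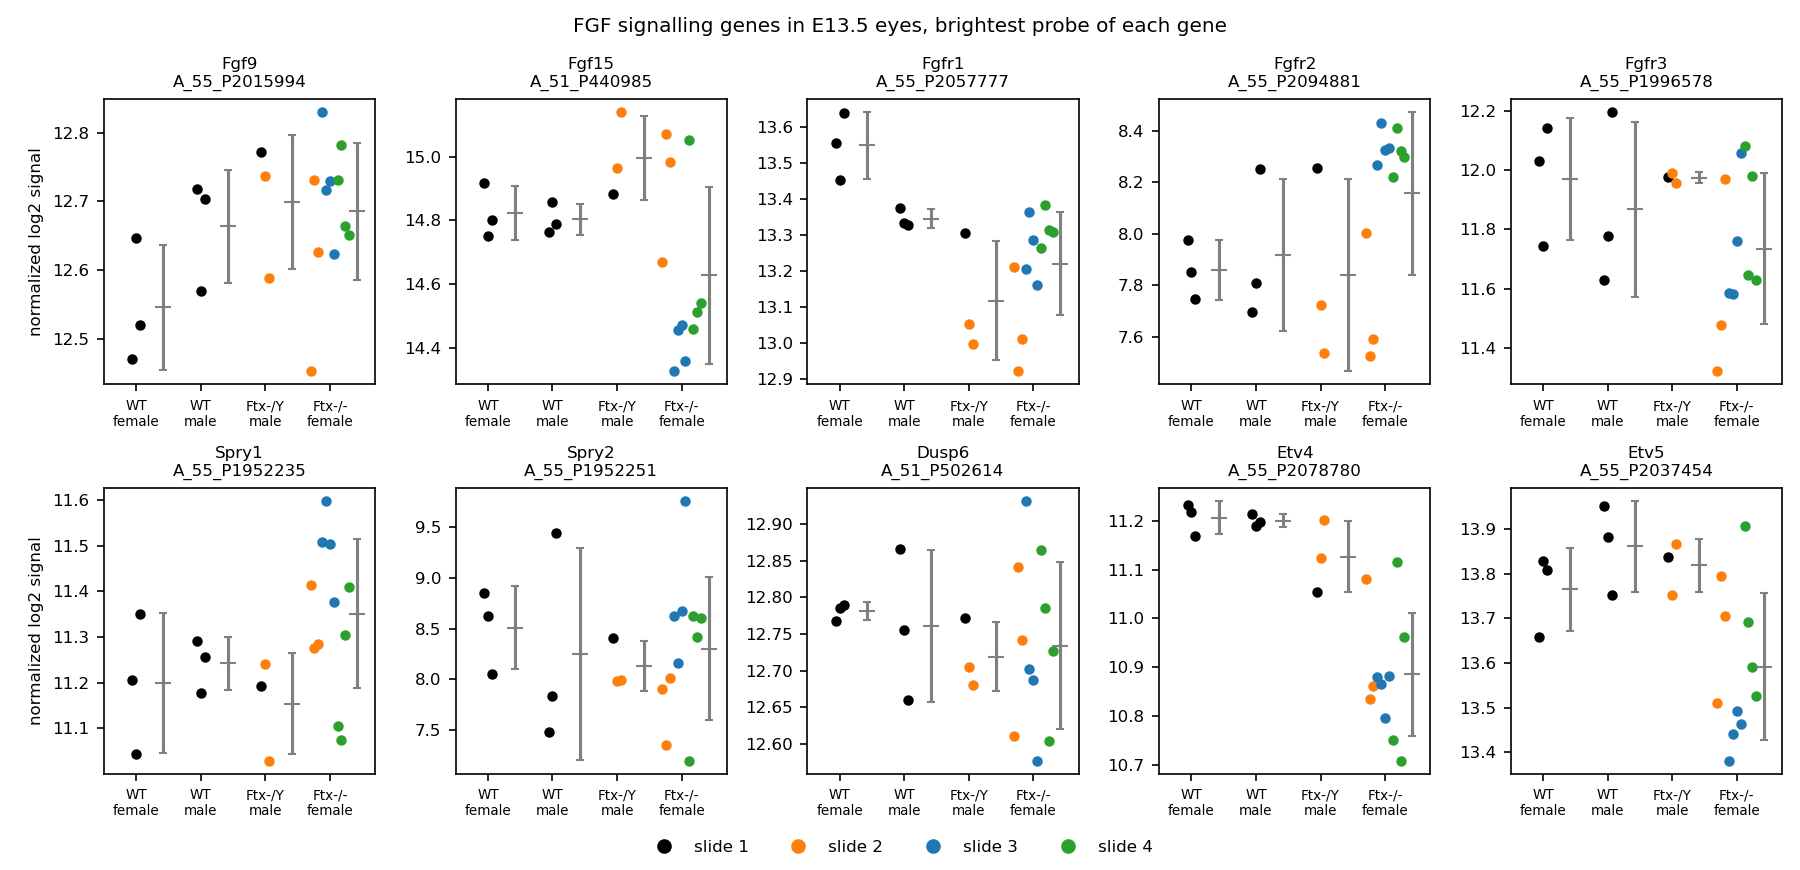
Normalized log2 signal (y axis) of the brightest probe of each of the 10 FGF genes in every eye, by group (x axis); colours mark the slide, and the grey mark beside each group is its mean ± SD. All 11 Ftx-/- female eyes lie below the 3 WT female eyes for Fgfr1 and Etv4 and overlap with them for the other 8 genes.

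Etv4, an ETS factor transcribed in response to ERK, was lower in Ftx-/- females. The log2 signal of probe A_55_P2078780 was 11.23, 11.22 and 11.17 in the WT female eyes and lay between 10.71 and 11.11 in the Ftx-/- eyes (median 10.87). In males it was 11.21, 11.19 and 11.20 in WT and 11.05, 11.12 and 11.20 in Ftx-/Y eyes. All 11 Ftx-/- eyes were below all WT eyes of either sex, whereas the Ftx-/Y eyes overlapped with WT males. The difference was -0.32 (SE 0.070, limma adjusted p = 0.00194), a fold change of 0.801, and 11.4% of all probes tested were likewise lower in every Ftx-/- eye than in any WT female eye. The male difference was -0.07 (SE 0.087, adjusted p = 0.783).

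For Etv4 probe A_55_P2078780 the difference was close in size on each slide of Ftx-/- females. Against the mean of the same 3 WT female eyes, all on slide 1, it was -0.28 on slide 2, -0.35 on slide 3 and -0.32 on slide 4. Within slide 2, the 3 Ftx-/- eyes differed from the 2 Ftx-/Y eyes by -0.24, and over all eyes the difference between the mutant sexes was -0.24 (SE 0.070, adjusted p = 0.0853, 11 of 11 Ftx-/- eyes below the Ftx-/Y mean), with an adjusted p below the threshold without Ftx-/- eye 1 or without eye 9. The female change minus the male change was -0.25 (SE 0.112, unadjusted p = 0.0398, adjusted p = 0.337), so a difference between the sexes was not shown. With slide as a fixed block the female difference was -0.39 (adjusted p = 0.233), an estimate that is tied to WT only through Ftx-/Y eye 1. With slide as a random block it was -0.34 (adjusted p = 0.0249). The dimmer Etv4 probe, A_55_P1959521, had a difference of -0.20 (SE 0.117, adjusted p = 0.269), or -0.12 without WT female eye 4, and 9 of 11 Ftx-/- eyes were below the WT female mean. On slides 2, 3 and 4 the difference of this probe was -0.08, -0.21 and -0.28.

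Fgfr1, a receptor expressed widely in the eye, was called through its brightest probe. Probe A_55_P2057777 had log2 signals of 13.56, 13.45 and 13.64 in WT females and 12.92 to 13.38 in Ftx-/- females (median 13.27). WT males had 13.38, 13.33 and 13.33, and Ftx-/Y males 13.31, 13.05 and 13.00. Every Ftx-/- eye was below every WT female eye, and every Ftx-/Y eye was below every WT male eye, which held for 11.4% and 9.39% of all probes tested. The female difference was -0.33 (SE 0.085, adjusted p = 0.0063; fold change 0.797) and the male difference -0.23 (SE 0.107, unadjusted p = 0.0468, adjusted p = 0.414). The difference between the changes in the 2 sexes was -0.10 (SE 0.136, adjusted p = 0.779), and ran from -0.16 to -0.0076 without each eye in turn.

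The size of the Fgfr1 difference varied with the slide. In females it was -0.50 on slide 2, -0.29 on slide 3 and -0.23 on slide 4. Ftx-/Y eye 1, on the slide of the WT eyes, differed from WT males by -0.04, whereas eyes 2 and 3, on slide 2, differed by -0.32. The summed signal of 6 erythroid markers was 609206 and 427595 in Ftx-/Y eyes 2 and 3, 297299 in eye 1 and 200198 to 255982 in WT males, and its part and that of the slide in the male values were not tested. With slide as a fixed block the female difference was -0.22 (adjusted p = 0.399), and with slide as a random block it was -0.28 (adjusted p = 0.0514). The other Fgfr1 probes were not called. The upstream probe A_55_P1967022 had log2 signals of 9.88, 9.31 and 9.68 in WT females and 9.29 to 9.65 in Ftx-/- females (difference -0.10, SE 0.099, adjusted p = 0.444). Probe A_55_P1967015 overlapped between groups (difference 0.15, 95% interval -0.38 to 0.67, adjusted p = 0.735), with Ftx-/- eyes of slide 3 0.70 above the WT female mean and those of slide 2 at -0.35 from it. These 3 probes of Fgfr1 therefore gave 3 estimates in the same eyes, but the 95% intervals of the brightest (-0.51 to -0.15) and upstream (-0.31 to 0.11) probes overlapped. Without each eye in turn the upstream probe ran from -0.256 to 0.026 and A_55_P1967015 from 0.024 to 0.24.

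**Figure D2:**
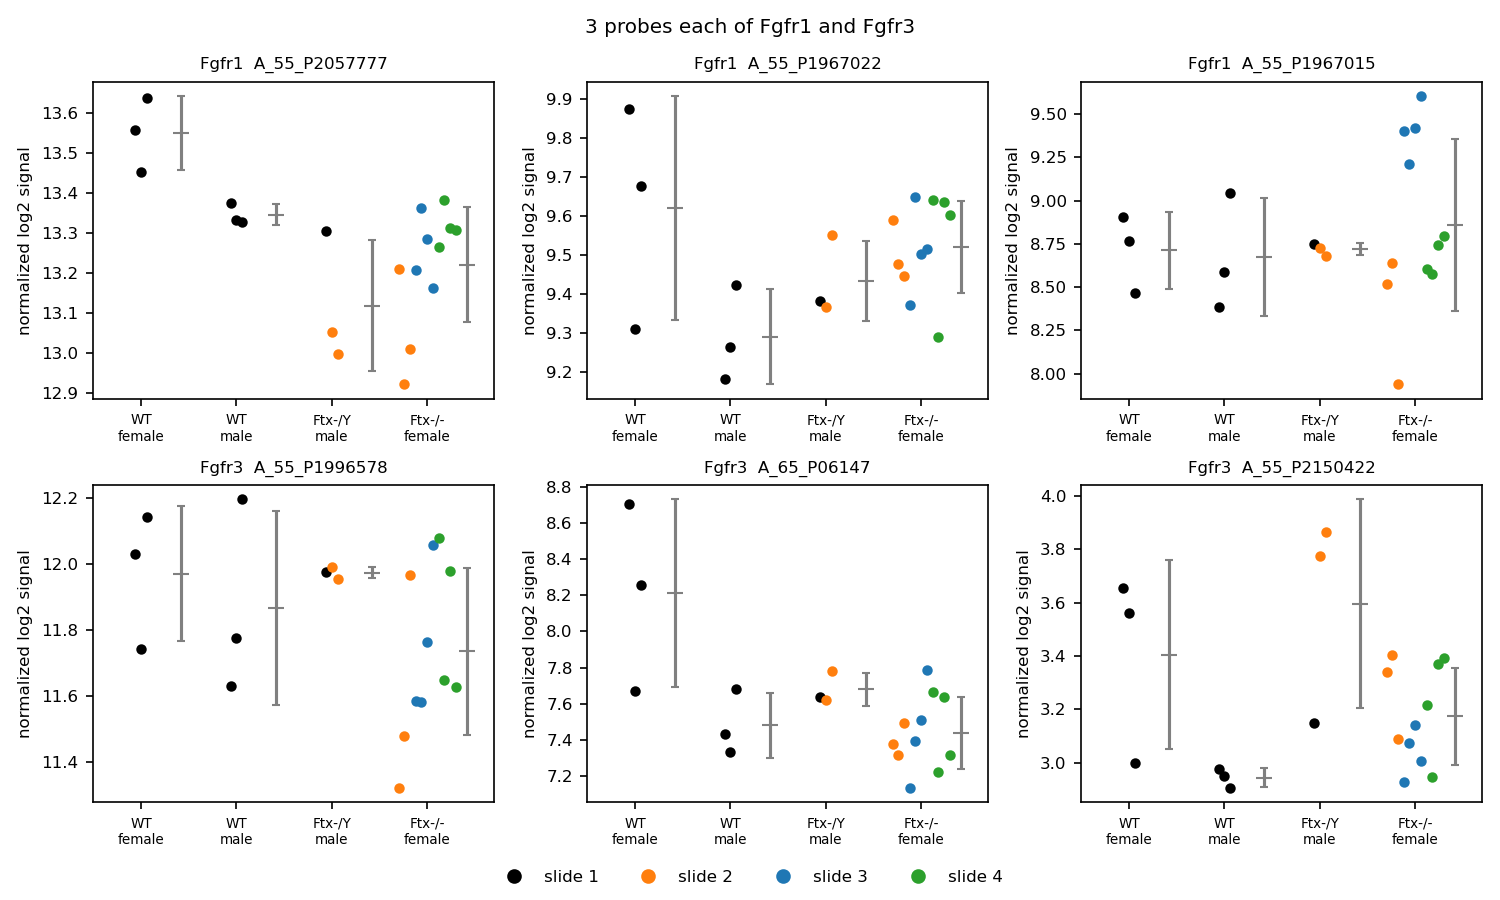
Normalized log2 signal (y axis) of 3 probes of Fgfr1 (upper row) and 3 of Fgfr3 (lower row) in every eye, by group (x axis); colours mark the slide and the grey mark is the group mean ± SD. For Fgfr1 only the probe at the upper left separates the female groups, with Ftx-/- eyes from 12.92 to 13.38 and WT eyes from 13.45 to 13.64; the probe at the lower right was not well above background on any array.

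Fgfr3, a receptor of the neural retina and lens, had no call through its brightest probe. The log2 signal of A_55_P1996578 was 12.03, 11.74 and 12.14 in WT females and 11.32 to 12.08 in Ftx-/- females, with a difference of -0.24 (SE 0.146, adjusted p = 0.218), which was -0.35 without WT female eye 2 and -0.15 without WT female eye 4. The upstream probe A_65_P06147 was lower in Ftx-/- females. It had log2 signals of 8.71, 7.67 and 8.26 in WT females, 7.43, 7.33 and 7.68 in WT males, 7.63, 7.62 and 7.78 in Ftx-/Y males and 7.13 to 7.78 in Ftx-/- females (median 7.39). Its difference was -0.77 (SE 0.164, adjusted p = 0.00378 in the fit over all 55681 probes, of which 15.8% were called), with all 11 Ftx-/- eyes below the WT female mean but overlapping with WT eye 2.

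For this probe WT females minus WT males was 0.73 (SE 0.206, unadjusted p = 0.00211, adjusted p = 0.154), which was no call, and WT female eye 2 lay within the range of WT males. The Ftx-/- eyes overlapped with both male groups. Without WT female eye 2 that difference between the WT sexes was 1.00 (adjusted p = 0.0183), and without WT female eye 1 it was 0.48. Over the eyes left out in turn its limma adjusted p ran from 0.0183 to 0.67. Without WT female eye 1 the mutant difference was -0.52 (adjusted p = 0.070), above the threshold. The call was also lost with slide as a fixed block (-0.89, adjusted p = 0.459), with the series table (-0.56, adjusted p = 0.0985) and with the methods' t-test (-0.82, adjusted p = 0.403). The female change minus the male change was -0.97 (SE 0.264, unadjusted p = 0.0015, adjusted p = 0.241). The remaining Fgfr3 probe, A_55_P2150422, was not well above background on any of the 31 arrays, and no fold change is given for it.

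Fgfr2, a receptor with known roles in lens fibre formation, was below the signal limit. Probe A_55_P2094881 had log2 signals of 7.98, 7.85 and 7.75 in WT females and 7.53 to 8.43 in Ftx-/- females (median 8.30), with 9 of 11 eyes above the WT female mean. Both lower Ftx-/- eyes (2 and 3) were on slide 2, as were the Ftx-/Y eyes with the lowest values, 7.72 and 7.54, beside 8.26 in Ftx-/Y eye 1. The female difference was 0.30 (95% interval -0.10 to 0.69, adjusted p = 0.312). Probe A_51_P432403, printed 10 times on each array, was near background, with a median SD of 0.336 between its copies on an array. All 3 WT female arrays and 19 of the 22 Ftx-/- arrays had it well above background, as had 2 of 3 Ftx-/Y and 0 of 3 WT male arrays, although its mean log2 signal was 4.73 in WT males and 4.64 in WT females. Its female difference was 0.62 (95% interval 0.11 to 1.12, unadjusted p = 0.0188, adjusted p = 0.0886), and the ranges overlapped. It was 0.38 without WT female eye 2 (adjusted p = 0.45) and 0.89 without WT female eye 4 (adjusted p = 0.0242), and its sign turned when arrays were scaled to the 75th percentile (-0.12).

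Of the ligands, Fgf9 was slightly higher in Ftx-/- females without passing the threshold. The log2 signal was 12.47, 12.65 and 12.52 in WT females and 12.45 to 12.83 in Ftx-/- females, and 10 of 11 Ftx-/- eyes were above the WT female mean. The difference was 0.14 (SE 0.066, 95% interval 0.0017 to 0.28, adjusted p = 0.107). Without Ftx-/- eye 1, the lowest of its group, it was 0.16 and passed the threshold. WT males had 12.72, 12.57 and 12.70, so the Ftx-/- eyes covered the range of both WT groups.

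Fgf15 varied among the Ftx-/- eyes more than between genotypes. WT females had log2 signals of 14.92, 14.75 and 14.80, and Ftx-/- females 14.32 to 15.07 (median 14.51). Eyes 2, 3 and 8 were at or above 14.98, and the other 8 were at or below 14.67. Set against WT females, the Ftx-/- eyes differed by 0.09 on slide 2, -0.42 on slide 3 and -0.18 on slide 4, and by -0.20 in the fit (SE 0.140, adjusted p = 0.29). In males the 3 Ftx-/Y eyes, at 14.88, 14.96 and 15.14, were above all WT eyes, at 14.76, 14.86 and 14.79, as were 11.2% of all probes tested. That difference was 0.19 (SE 0.175, adjusted p = 0.698), and ran from 0.12 to 0.25 without each eye in turn.

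The feedback inhibitors were not called. Dusp6, a phosphatase that acts on ERK, had log2 signals of 12.77, 12.79 and 12.79 in WT females and 12.58 to 12.93 in Ftx-/- females, a difference of -0.05 (95% interval -0.19 to 0.09, adjusted p = 0.611). The eyes of both groups overlapped. Spry1 had 11.21, 11.04 and 11.35 in WT females and 11.07 to 11.60 in Ftx-/- females, a difference of 0.15 (SE 0.094, adjusted p = 0.221), which was 0.073 without WT female eye 2 and 0.23 without WT female eye 4. On slide 3 alone the Ftx-/- eyes were 0.30 above WT females.

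Spry2 could not be read closely. Its probe was well above background on all arrays but ranged from 7.20 to 9.75 within the Ftx-/- group (SD 0.701) and from 7.48 to 9.44 within WT males, and the 2 arrays of 1 Ftx-/- eye differed by up to 1.12. The female difference was -0.21 with a 95% interval of -1.06 to 0.65 (adjusted p = 0.773). The T-rich Fgfr1 probe A_55_P1967015 had the second largest SD in that group among the FGF probes, 0.495. Among 9262 probes with a mean log2 signal between 7 and 10, the median SD over the Ftx-/- eyes was 0.229, and it was 0.263 for the 65 with at least 60% T in the last 30 bases, limits that were chosen after the values were seen.

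Etv5, the second ETS target, was lower in 9 of 11 Ftx-/- eyes than the WT female mean but was not called. WT females had log2 signals of 13.66, 13.83 and 13.81, and Ftx-/- females 13.38 to 13.91 (median 13.53). The 4 eyes of slide 3 were the lowest, at 13.38, 13.44, 13.49 and 13.46. The difference was -0.17 (SE 0.090, adjusted p = 0.141), and it passed the threshold without Ftx-/- eye 8, the highest eye, at -0.20. Males had WT values of 13.95, 13.88 and 13.75 and Ftx-/Y values of 13.84, 13.75 and 13.87 (difference -0.04, SE 0.112, adjusted p = 0.913).

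**Figure D3:**
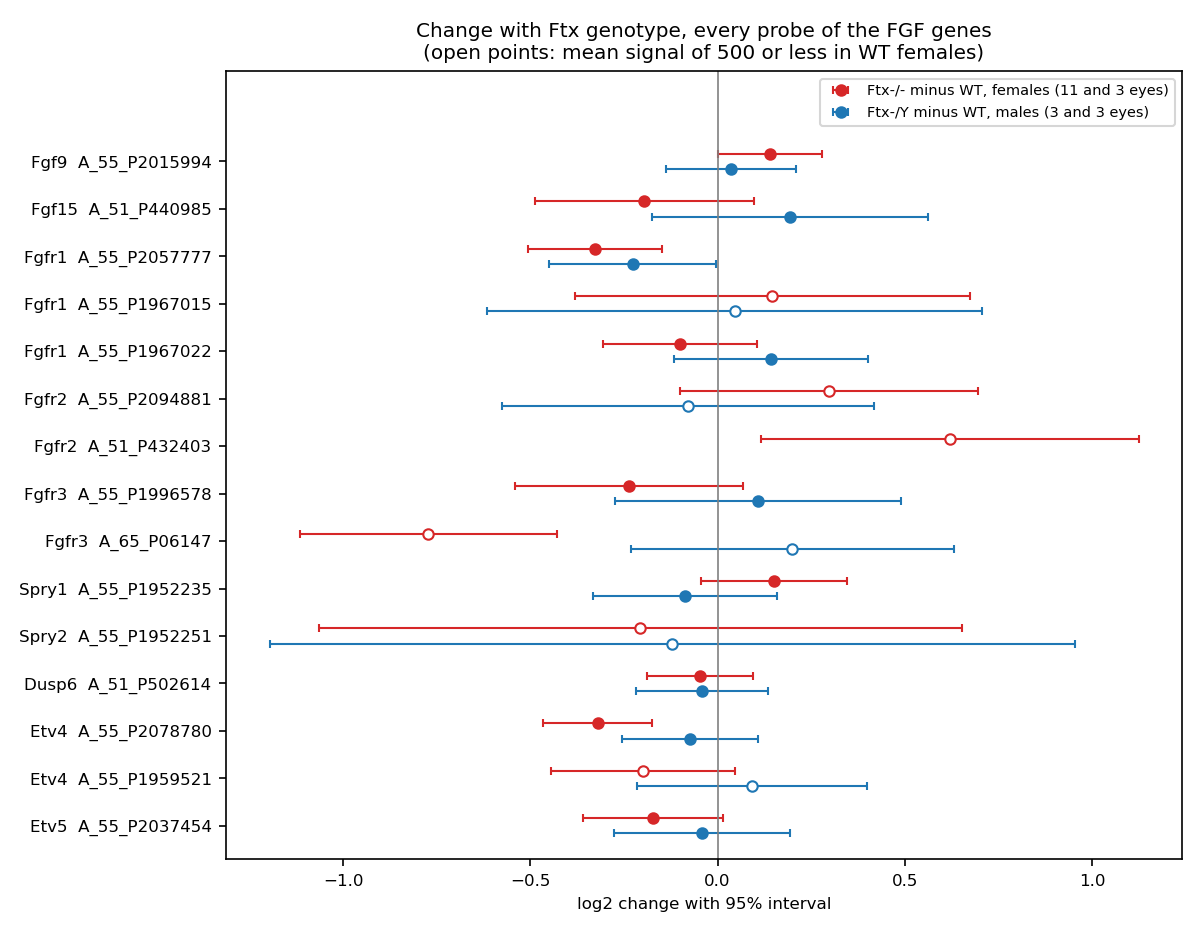
Log2 change with 95% interval (x axis) of every FGF probe (y axis) in females, Ftx-/- minus WT, in red and in males, Ftx-/Y minus WT, in blue; open points are probes with a mean signal of 500 or less in WT females. Red intervals lie wholly below 0 for the brightest Fgfr1 and Etv4 probes and for Fgfr3 A_65_P06147 (-0.77), and wholly above 0 for Fgf9 (0.14) and Fgfr2 A_51_P432403 (0.62). The blue interval of the brightest Fgfr1 probe also lies wholly below 0 (-0.45 to -0.0036). Probes or groups not well above background are left out.

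No FGF probe was called in the male comparison, in which 0.0213% of all probes tested were called (3 probes, and 1656 at an unadjusted p under 0.05). Without WT male eye 3 the calls in males rose to 362 of all probes, still with no FGF probe. None was called between WT females and WT males (0.0712% of all probes), between Ftx-/- and Ftx-/Y eyes (1.96%), or when the male change was subtracted from the female change, for which limma called 0 probes in all (1946 at an unadjusted p under 0.05). With the fold limits of 1.2 and 0.8 and an unadjusted p under 0.05, 1 of the 9 FGF probes, that of Fgfr1, was called in females (26.7% of all probes), since Etv4 was at 0.801. The same limits called 1 of the 9 tested FGF probes between the mutant sexes, that of Fgf15 (6.79% of all probes), and 1 between the WT sexes, Fgfr1 A_55_P1967022 (4.33%). They called none of the 9 in males (5.69%) and none for the female change minus the male change (10%). Of the dimmer probes outside the test, Fgfr3 A_65_P06147 passed these limits in females (-0.77), between the WT sexes (0.73) and for the female minus the male change (-0.97). Fgfr2 A_51_P432403, near background, passed them in females (0.62). Fgfr1 was also the only FGF gene whose brightest probe was higher in every WT female than in every WT male eye, with a difference of 0.20 (SE 0.107, adjusted p = 0.537) and a background of 10.1%.

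Markers of the eye tissues differed between the female groups in the same eyes. Of 10 lens markers (such as the crystallin gene Cryab and the membrane protein gene Lim2) 7 were lower in Ftx-/- females and none was higher, where 18.2% of all probes tested were lower and 16.8% higher. The summed signal of the list ran from 976352 to 1245861 in Ftx-/- eyes and from 1223602 to 1361298 in WT females. Of 9 retinal progenitor markers 2 were higher, Sox2 among them, and none was lower. Of 7 retinal neuron markers 2 were higher and 3 lower, and of 5 erythroid markers tested 2 were higher and none lower. The summed signal of 8 periocular mesenchyme markers was 5436 to 37262 in Ftx-/- and 3828 to 5353 in WT females, and that of 6 pigment epithelium markers was 2706 to 24457 and 3870 to 5613. The 3 muscle markers summed to 23.9 to 1390 in Ftx-/- and 26.2 to 97.3 in WT females. Rpe65 and the muscle factor Myod1 were not above background on any array. Fewer cells of a type and less RNA per cell cannot be told apart in whole eyes, and the part of tissue makeup in the Etv4 and Fgfr1 differences was not tested.

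How the FGF genes varied with these lists was described across the 11 Ftx-/- eyes, with the brightest probe of each gene against the mean log2 level of the lens, retinal progenitor and mesenchyme lists (30 relations, permutation p, two-sided). Etv5 went with both eye tissues. Its r was 0.78 with the lens list (p = 0.00431, adjusted p = 0.0362; rho 0.85, p = 0.00161) and 0.80 with the progenitor list (p = 0.00286, adjusted p = 0.0362; rho 0.88, p = 7e-04). Without the 2 eyes farthest from the median of the list these were 0.81 and 0.80, and with slide means taken out 0.68 (adjusted p = 0.266) and 0.72 (adjusted p = 0.0774).

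Fgf15 went with the progenitor list, at r = 0.81 (p = 0.0011, adjusted p = 0.033; rho 0.85, p = 0.00179), and at 0.56 within slides (adjusted p = 0.266). Spry1 ran against the lens list, at r = -0.75 (p = 0.0083, adjusted p = 0.0498; rho -0.84, p = 0.00237), with -0.67 within slides (adjusted p = 0.118). Its r was nearly as large with the progenitor list, at -0.67 (p = 0.0244, adjusted p = 0.0814; rho -0.77, p = 0.00758, adjusted p = 0.0379), and with the mesenchyme list, at 0.67 (p = 0.0238, adjusted p = 0.0814; rho 0.69, p = 0.0214, adjusted p = 0.086), with -0.66 and 0.68 within slides and -0.59 and 0.63 without the 2 farthest eyes. Fgfr3 ran against the mesenchyme list at r = -0.79 (p = 0.00483, adjusted p = 0.0362; rho -0.80, p = 0.00486), with the same value within slides (-0.79, adjusted p = 0.118). The relations of Fgf15 with progenitor, Spry1 with lens and Fgfr3 with mesenchyme markers had r of 0.86, -0.80 and -0.68 without the 2 farthest eyes. The r of Fgfr3 with the lens list was 0.71 (p = 0.0163, adjusted p = 0.0699; rho 0.64, p = 0.0402) over all eyes, 0.69 without the 2 farthest eyes and 0.93 within slides, the only relation with an adjusted p under 0.05 there (0.012).

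For the brightest probes of Etv4 and Fgfr1, the pair of tested FGF probes called lower in Ftx-/- females, no relation passed the adjustment. Etv4 had r = -0.36 with the lens list (p = 0.283, adjusted p = 0.53; rho -0.49, p = 0.13) and Fgfr1 r = -0.40 (p = 0.223, adjusted p = 0.445; rho -0.27, p = 0.418). Without the 2 farthest eyes r was -0.48 and -0.01, and within slides -0.55 and -0.60 (adjusted p = 0.328 for both). Fgfr1 had its largest r over all eyes with the progenitor list, at -0.64 (p = 0.0355, adjusted p = 0.0969; rho -0.43, p = 0.192), with -0.25 without the 2 farthest eyes and -0.61 within slides (adjusted p = 0.266). Fgfr2, through A_55_P2094881, had r = -0.72 with the progenitor list (p = 0.0148, adjusted p = 0.0699; rho -0.69, p = 0.0229), with -0.51 without the 2 farthest eyes and -0.49 within slides (adjusted p = 0.328). The lens list itself was lower in Ftx-/- than in WT females, at a mean log2 of 15.13 ± 0.18 (SD, n = 11) beside 15.66 ± 0.16 (n = 3).

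**Figure D4:**
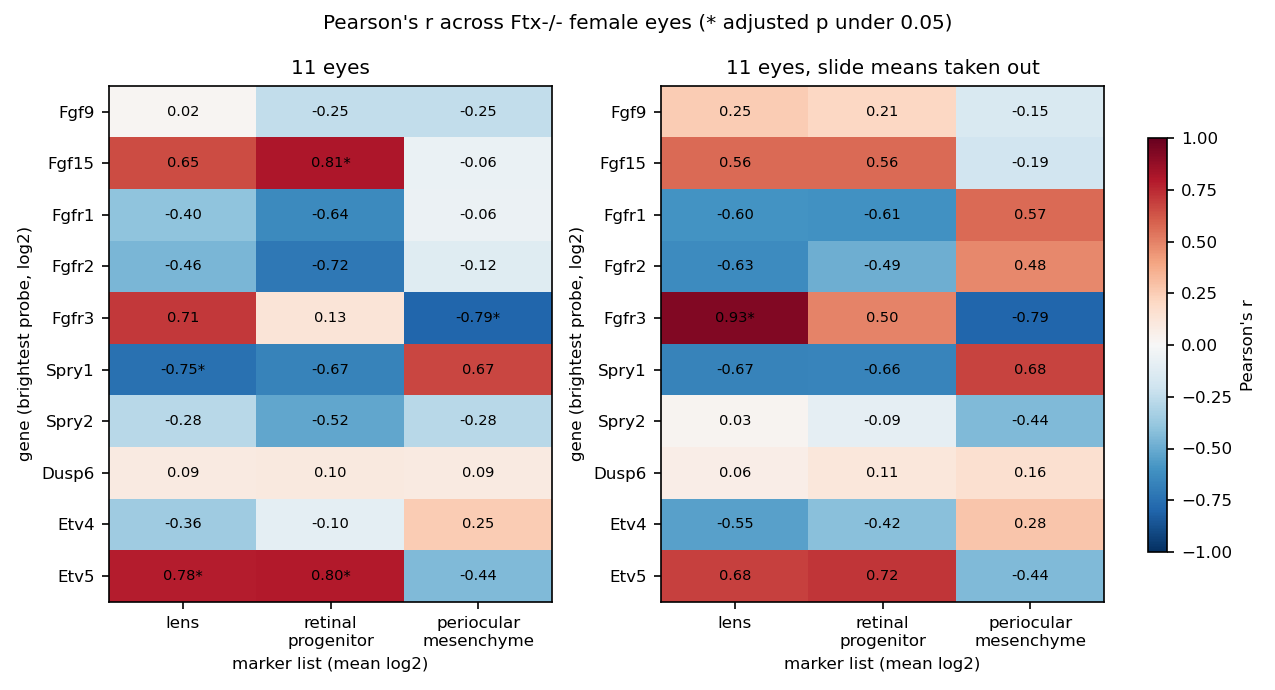
Pearson's r across the 11 Ftx-/- female eyes between the brightest probe of each FGF gene (y axis) and the mean log2 level of 3 marker lists (x axis), over all eyes (left) and with slide means taken out (right); colour gives r and an asterisk an adjusted p under 0.05. Asterisks stand at 5 relations on the left, of Etv5, Fgf15, Fgfr3 and Spry1, and at 1 on the right, Fgfr3 with the lens list.

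The rest of the pathway was read from 91 further genes, each by its brightest probe, of which 49 passed the signal limit. In Ftx-/- females 11 were higher and 8 lower than in WT females, against 16.8% and 18.2% of all probes tested, and the median change of the 49 was -0.01. Heparan sulphate enzymes had 4 of 8 higher and none lower, ETS factors 2 of 4 higher and none lower, and lens and retina factors 2 of 7 higher and 3 lower. The RAS-ERK cascade, which had all 10 genes above the limit, had 1 higher and 2 lower. With slide as a fixed block none of the 49 was called in females, and with slide as a random block 11 were. No pathway gene was called in males (4 without WT male eye 3) or between the sexes of WT eyes.

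Among those higher in Ftx-/- females, Glce, an enzyme that modifies heparan sulphate, had log2 signals of 10.31 to 10.96 in WT females and 11.27 to 11.73 in Ftx-/- females (difference 0.76, SE 0.138, adjusted p = 0.000535). Mitf, the master regulator of pigment cells, which FGF restrains in the optic vesicle, had 10.29 to 10.50 and 10.13 to 11.78 (0.73, SE 0.228, adjusted p = 0.0184), and its eyes overlapped. Mitf is itself in the pigment epithelium list, whose mean log2 level was 8.71 ± 0.81 (SD, n = 11) in Ftx-/- and 8.02 ± 0.26 (n = 3) in WT females, and the part of pigment cells in its rise was not tested. Il17rd (Sef), an inhibitor of FGF signalling at the membrane, had 9.59 to 9.998 and 10.22 to 10.63 (0.63, SE 0.086, adjusted p = 7.47e-05). For Glce and Il17rd, every Ftx-/- eye was above every WT female eye, as held for 10.1% of all probes tested. Glce in WT males (10.97 to 11.59) and Ftx-/Y males (11.24 to 11.56) overlapped with the Ftx-/- eyes, and Il17rd in WT males (9.82 to 10.17) and Ftx-/Y males (9.95 to 10.01) did not.

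Of those that were lower, Foxe3, a transcription factor of the lens epithelium and itself in the lens list, had 9.55 to 10.42 in WT and 8.75 to 9.47 in Ftx-/- females (-0.93, SE 0.162, adjusted p = 0.000404). Prox1, which drives fibre differentiation, had 9.74 to 9.90 and 8.38 to 9.54 (-0.85, SE 0.204, adjusted p = 0.00392). Fgf6, a ligand best known from muscle, had 8.63 to 9.39 and 6.49 to 7.79 (-1.89, SE 0.314, adjusted p = 0.000281), while WT males had 7.98 to 9.29 and Ftx-/Y males 6.78 to 8.37. Fgf6 passed the signal limit of 500 only through the group in which it was highest, with mean signals of 571 in WT females, 455 in WT males, 195 in Ftx-/Y males and 155 in Ftx-/- females, so the limit favoured a fall. Its adjusted p was 0.000601 in the fit over all 55681 probes. The limit on WT females applied to all probes tested, of which 2365 were called higher and 2560 lower in females. With the limit set on the mean of the 4 groups these were 2532 and 2413. All 3 genes were lower in every Ftx-/- eye than in any WT female eye, as held for 11.4% of all probes tested. WT males overlapped with the Ftx-/- eyes for Foxe3 (9.24 to 9.67) and Prox1 (9.32 to 9.80).

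Between the mutant sexes 4 of the 49 pathway genes were called, beside 1.96% of all probes tested. Dusp9, an X-linked phosphatase of ERK, was 9.83 to 10.30 in Ftx-/- and 9.31 to 9.43 in Ftx-/Y eyes (difference 0.65, SE 0.103, adjusted p = 0.00405), and was 9.66 to 9.84 in WT females and 9.11 to 9.57 in WT males. Elk3, an ETS factor, was higher in Ftx-/- eyes by 0.54 (SE 0.139, adjusted p = 0.0486) and Il17rd by 0.46 (SE 0.086, adjusted p = 0.0139). Dusp4, a further ERK phosphatase, was lower in Ftx-/- eyes (difference -0.54, SE 0.136, adjusted p = 0.0466). The count of 4 was 1, 0 and 1 without Ftx-/Y eyes 1, 2 and 3, 0 with slide as a fixed block and 2 with slide as a random block. The share beside it moved as well. The 275 calls behind the 1.96% ran from 15 to 425 without each eye in turn. In the same comparison 3 of 10 lens markers were lower in Ftx-/- eyes, 2 of 3 macrophage markers were higher and 1 of 5 erythroid markers was lower, and their part in these differences was not tested.

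**Figure D5:**
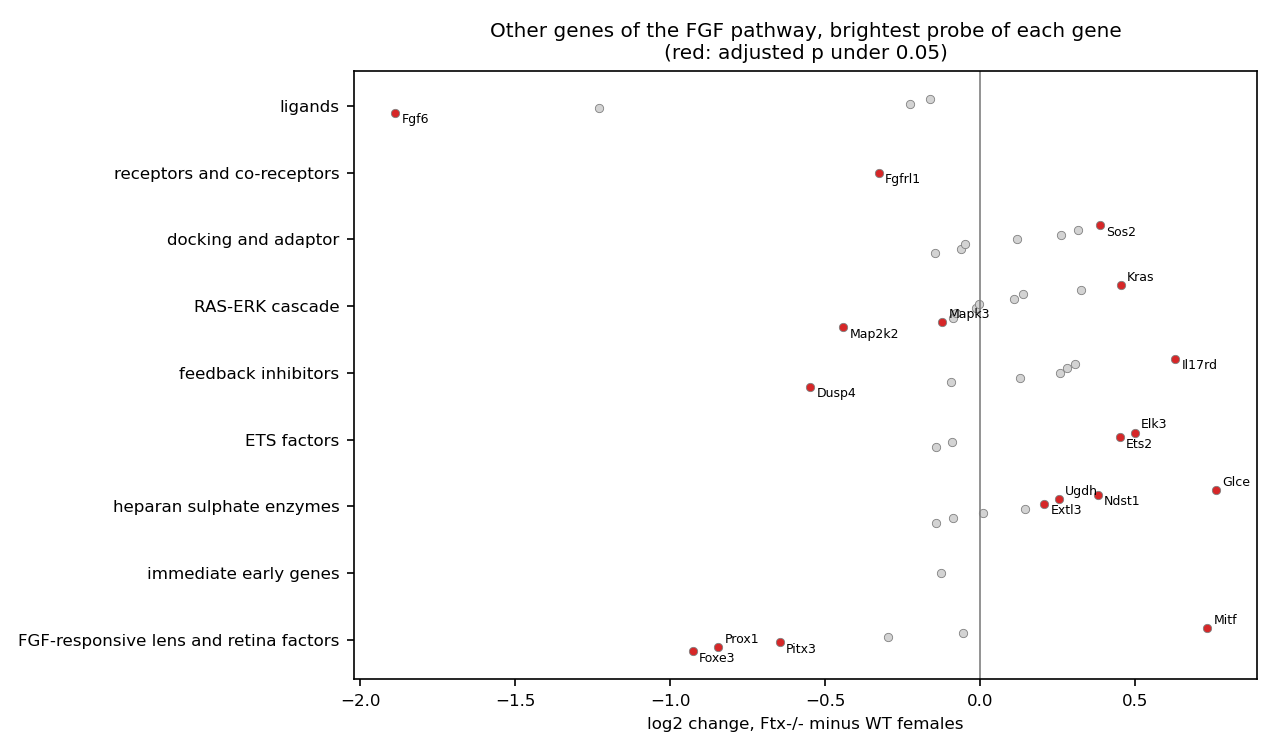
Log2 change in Ftx-/- minus WT females (x axis) of 48 of the 49 further pathway genes above the signal limit, by group (y axis); red points, with names, have an adjusted p under 0.05, 10 of them higher and 8 lower. The heparan sulphate enzymes have 4 red points, all above 0, and Fgf6, above the limit in WT females only, lies farthest to the left at -1.89.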

How the data were processed

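Total RNA of single eyes was labelled with Cy3 and hybridized to Agilent 8x60K whole-mouse arrays (31 arrays, 20 eyes). The deposited scanner files give the intensity of each of 62976 spots per array from Feature Extraction 11.0.1.1 (per the file headers), and the processed signal is already background-subtracted by that software. The authors' series table holds the same intensity values, rounded, without normalization between arrays. Study methods name quantile-spline normalization, which was rebuilt here (100 samples, 5 iterations). Spots flagged as non-uniform (120) or as population outliers (5631) were left out, log2 values of the deposited intensity, after this normalization, were averaged over the spots of a probe and over both arrays of an Ftx-/- eye, and 55681 probes remained. Differences were fitted with limma 3.58.1 in R 4.3.3 (lmFit, eBayes with trend) over the 20 eyes, for 14052 probes whose WT female mean exceeded 500, with Benjamini-Hochberg adjustment. Of these, 21 lacked a value in some eye. In simulated data on 14031 probes, 200 were changed by 1 on the log2 scale. Of these, 92% were found in the female and 91.5% in the male comparison. Each comparison also gave 8 false calls. Detection of smaller differences, such as the -0.32 of Etv4 and -0.33 of Fgfr1 in females, was not tested. Precision is limited by the number of eyes. All 10 FGF genes are named with all probes. Of further pathway genes, up to 3 largest rises and 3 largest falls called per comparison are named. Members and lists were chosen with earlier results of these data known. Alternatives covered normalization, background correction, filters, slide, replicate number, test, threshold and leaving out each eye. A gene of the lists is counted but not reported by name here. The fourth WT female eye named in the methods was not analysed here.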

Additional observations from a re-analysis of the deposited data

How the results depend on the processing

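In females 2 FGF probes were called. This count was 0 with the series table (Etv4 -0.02, adjusted p = 0.928; Fgfr1 -0.04, adjusted p = 0.883), 0 with slide as a fixed block, 1 with slide as a random block (correlation within slides 0.371) and 1 by fold and unadjusted p, with limma or with the methods' t-test. It ran from 2 to 3 without each eye in turn, 3 being reached without Ftx-/- eye 1 (Fgf9, 0.16) or eye 8 (Etv5, -0.20). It was also 3 with normexp and quantile normalization (Fgf9, 0.20), with no filter and for probes well above background. Without each eye in turn Etv4 lay between -0.343 and -0.303 and Fgfr1 between -0.376 and -0.284, called each time. Between Ftx-/- and Ftx-/Y eyes the count of 0 became 1 by fold and unadjusted p with either test, and ran from 0 to 1 without each eye in turn (Etv4, -0.26 without Ftx-/- eye 1 or 9). Between the WT sexes it became 1 by fold and unadjusted p. The series table is not normalized between arrays. With it the median change of all tested probes in females was 0.25 and 93.2% of calls were higher, against 48% in the main setting and 55% with the 75th percentile.

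With the replicate number as a block the female count was 3, with Etv4 at -0.30, Fgfr1 at -0.43 and Fgfr3 A_55_P1996578 at -0.46 (adjusted p = 0.0353), and the calls over all probes went from 4925 to 3233. Same-numbered eyes of compared groups correlated between -0.595 and 0.300 in their deviations from the group means, and differently numbered eyes between -0.479 and 0.511. The groups are small and spread over slides, so these values cannot tell whether same-numbered eyes are related. The labels do not say it either. Calls over all probes were 11 with slide as a fixed block, 2453 with slide as a random block, 2802 with the series table, 3282 by the methods' t-test with the fold limits, 8809 with no filter and 8701 for probes well above background.

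Signs turned for values that were not called in the main setting, and the cause was not tested. With the series table the female change was 0.056 for Fgfr3 A_55_P1996578, 0.22 for Dusp6, 0.11 for Etv5, 0.17 for Fgfr1 A_55_P1967022, 0.049 for Fgf15, 0.035 for Etv4 A_55_P1959521 and 0.0049 for Spry2. The male change was -0.037 for Fgf9, -0.089 for Fgfr1 A_55_P1967015, -0.068 for Fgfr3 A_65_P06147 and -0.055 for Etv4 A_55_P1959521, and the female minus the male change was 0.13 for Etv4 and 0.26 for Fgfr1. The 75th percentile gave -0.12 for Fgfr2 A_51_P432403 in females. Slide as a fixed block gave 0.029 for Dusp6 and -0.30 for Fgfr1 A_55_P1967015 in females, and 0.011 for Dusp6, 0.16 for Spry2 and 0.34 for Fgfr2 A_55_P2094881 in males. As a random block it gave 0.018 for Spry2 and 0.065 for Fgfr2 A_55_P2094881 in males. The replicate block gave 0.027 for Dusp6 and -0.027 for Fgfr1 A_55_P1967015 in females, and -0.071 for Fgfr1 A_55_P2057777 between the mutant sexes. Without each eye in turn, Fgfr1 A_55_P1967022 ran from -0.256 to 0.026 in females. In males Fgfr3 A_55_P1996578 ran from -0.012 to 0.27, Dusp6 from -0.091 to 0.012, Fgf9 from -0.011 to 0.091, Etv5 from -0.098 to 0.0021, Fgfr1 A_55_P1967015 from -0.098 to 0.23, Spry2 from -0.51 to 0.47 and Fgfr2 A_55_P2094881 from -0.29 to 0.088. Signal over background limits the Fgfr2 A_51_P432403 and Fgfr3 A_55_P2150422 probes.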
